A study of Mus musculus with 90 samples.

Results

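The 42 genes described here encode the complement and coagulation factors of blood plasma, 24 of them coagulation, anticoagulant and fibrinolytic proteins and 18 of them complement proteins and their inhibitors. They were taken by symbol from the 18223 genes of the deposited tables, and all 42 were present and passed the filter on low counts, among 13248 genes tested. Liver RNA came from 90 female Diversity Outbred (J:DO) mice, an outbred stock in which every animal carries its own mixture of founder genomes, aged 6 to 20 weeks. The vehicle group of 41 animals was given sterile distilled water by mouth, and the zileuton group of 49 animals was given 300 mg per kg of zileuton, an inhibitor of 5-lipoxygenase, daily over 7 days. Each library is 1 animal, so replicates are separate animals, but no founder genotype is used here and the only other label that differs between animals is coat colour (29 agouti, 6 black and 6 white animals under vehicle, 34, 6 and 9 under zileuton).

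Hepatocytes make most of these proteins and secrete them into plasma, many of them as inactive precursors. Coagulation proceeds through proteases that cleave one another until thrombin turns fibrinogen into fibrin, while antithrombin, heparin cofactor II and the protein C system restrain it and plasmin dissolves the clot. Complement starts from antibody or sugar recognition, meets at C3, and ends in a membrane pore built from C5 to C9. Several of these genes also belong to the acute phase response, in which interleukin 6 changes hepatocyte secretion.

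Totals of estimated counts ran from 12664579 to 41360187 per library. All 10 hepatocyte markers were above 1 CPM on average (a count scaled to the library's size by TMM, the trimmed mean of M values), and their summed level was 89520 to 179800 CPM in vehicle livers (median 126100) and 73490 to 168200 CPM in zileuton livers (median 112500). By edgeR, 5 of the 10 were lower under zileuton (Alb, Ttr, Apoa1, Cps1 and Ass1) and 2 were higher (Pck1 and Cyp2e1). Skeletal muscle transcripts reached 3120 CPM in vehicle animal 8 and 1864 CPM in zileuton animal 24, against medians of 2.14 and 1.69 CPM. None of the 11 macrophage markers was called by edgeR (0 at an unadjusted p under 0.05), DESeq2 or limma-voom, and their summed medians were 268.5 and 239.2 CPM. In the lists of other cell types, the markers called lower were Clec4g and Tek (endothelium), Dcn and Pdgfrb (stellate cells and fibroblasts), Sox9 (cholangiocytes), Cd3d (lymphocytes), S100a9 (neutrophils), Ankrd23 (muscle), Cela1 (pancreas) and Car3 (adipocytes), and those called higher were Vwf (endothelium), Col1a1 (stellate cells and fibroblasts) and Cidec (adipocytes). Without vehicle animal 8, Ankrd23 went from a log2 fold change of -2.41 to -0.0057 and was not called (adjusted p = 0.987 by edgeR). Without vehicle animal 9, S100a9 went from -1.29 to -0.65 and was not called (adjusted p = 0.0536 by edgeR). The neutrophil marker S100a8 went the other way, at 0.88 and not called (adjusted p = 0.088 by edgeR). Without the same animal it was 1.58 and called higher (adjusted p = 0.000578 by edgeR). Csf3r, also of the neutrophil list, was -0.16 and -0.07 without that animal, with no call. Car3 and Col1a1 each lost the call in 1 of 90 fits that left out 1 library. Several lists rest on few genes, since 4 of 6 adipocyte, 4 of 6 pancreas, 6 of 8 muscle and 3 of 6 neutrophil genes were below the filter. Car3 and Cidec were the 2 adipocyte genes tested, and they moved in opposite directions, so they give no direction for adipocytes. The part of these marker differences in the members' results was not tested. In these bulk samples fewer cells of a type and less RNA per cell cannot be told apart.

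The members were among the most abundant liver transcripts. Per kilobase of gene model, 38 of 42 lay above the 90th percentile of the genes tested in vehicle livers. C3, the protein at which the complement pathways meet, had the highest median level at 1721 CPM per kb (774.5 to 3193). The fibrinogen chains followed, with Fgg (gamma) at 1580, Fga (alpha) at 1498 and Fgb (beta) at 1045 CPM per kb, and Apoh, a phospholipid-binding plasma protein, at 1556. The ranges over animals of C3, Fgg, Apoh and Fga overlapped, so their order is not separated beyond the spread between animals. At the other end were Pros1 (protein S, the cofactor of protein C) at 10.2, Masp1 (a protease of the lectin pathway) at 9.46 and C6 (a pore component) at 4.44 CPM per kb, where the median gene had 2.70 and albumin 42510. Members together took 4.77% ± 0.622 (SD, n = 41) of counts in vehicle livers and 4.52% ± 0.613 (SD, n = 49) in zileuton livers.

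Under zileuton, 19 members were lower and 3 were higher by edgeR's quasi-likelihood test (Benjamini-Hochberg adjusted p below 0.05), and 20 did not pass. Over all genes tested the share called lower was 14.8% and the share called higher 14.4%, 29.3% in either direction, while 45.2% of members were called lower and 7.14% higher. The median log2 fold change of the members was -0.13, or -8.64%, against -0.01 over all genes tested, and 35 of 42 were negative. Coagulation members had 15 of 24 lower and 1 higher, complement members 4 of 18 lower and 2 higher. For every member the ranges of the groups overlapped, a count not taken over all genes. The members' median change of -0.13 was smaller than their median SD of log2 CPM in vehicle livers, 0.29. Some called changes were larger than the gene's own SD, as for Serpinc1 (-0.15 against 0.12) and C8g (-0.32 against 0.21). Others were smaller, as for C9 (-0.57 against 0.77).

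**Figure D1:**
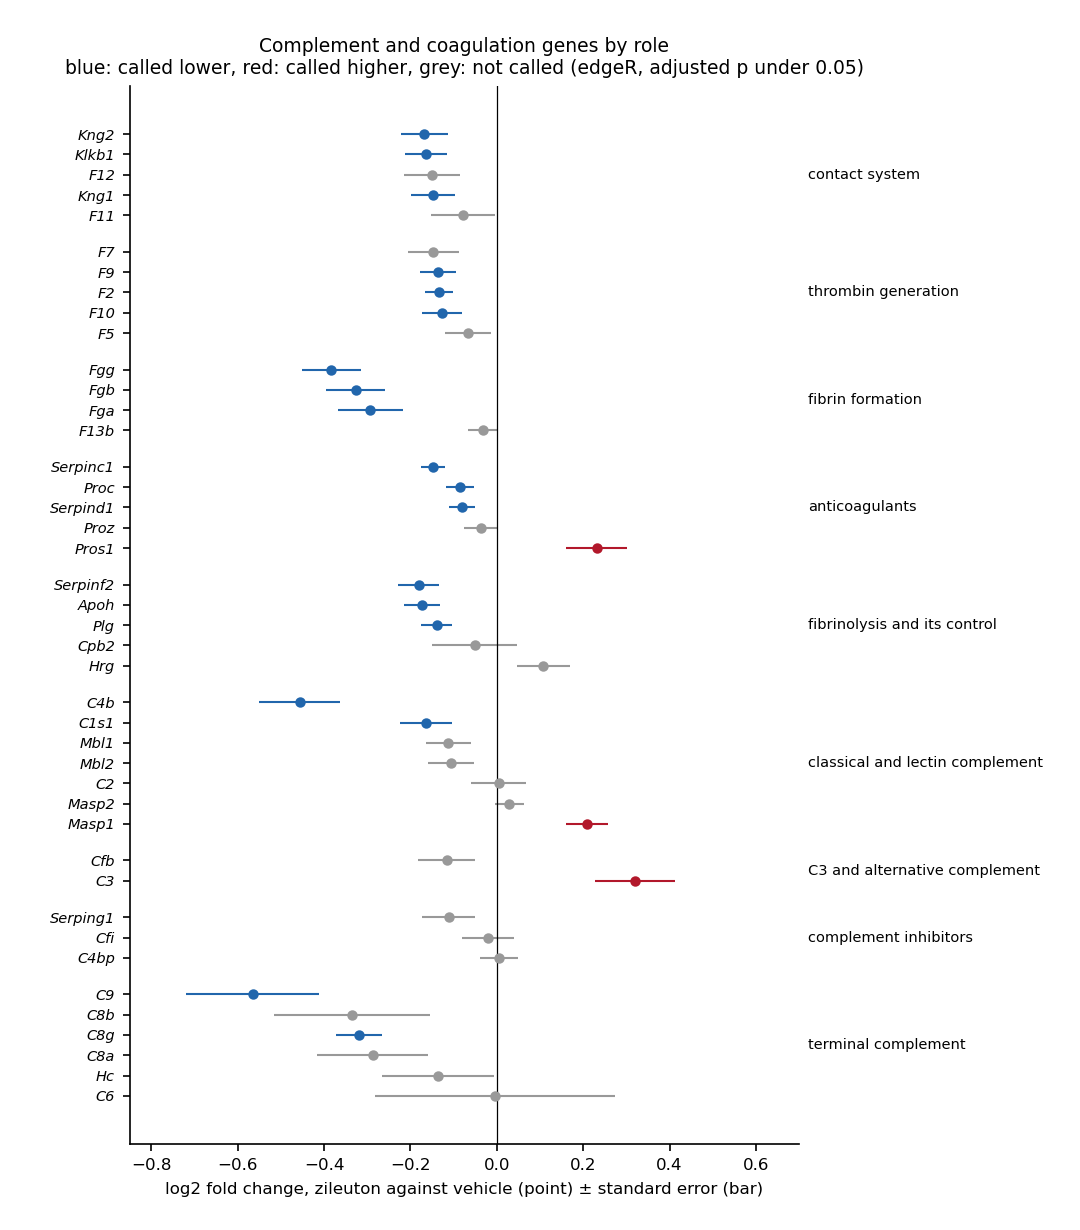
Log2 fold change of each of the 42 genes, zileuton against vehicle, grouped by role, with bars of 1 standard error. The 19 genes called lower (blue) include the 3 fibrinogen chains near -0.3 to -0.4 and C9 at -0.57, and the 3 called higher (red) are Pros1, Masp1 and C3.

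The labels do not let this comparison be separated from the order of the animals. Animal numbers fall into 8 runs of 50, and within each run vehicle animals hold positions 13 to 20 and zileuton animals positions 25 to 50, with no overlap. With position as a covariate no member was called in either direction (217 genes called, 1.64%, with 0.385% lower and 1.25% higher), 28 members were negative and the median was -0.04, and 3 members had an unadjusted p under 0.05 by edgeR. Clock genes also differed between the groups: all 5 genes that peak with Bmal1 were lower, Arntl (Bmal1 itself) from a median of 25.0 to 4.94 CPM, and all 11 genes of the opposite phase were higher, Dbp from 3.07 to 74.5 CPM. With a clock score (mean z score of the opposite-phase genes minus that of the Bmal1-phase genes) as a covariate, no member was called (384 genes called, 2.90%, with 1.09% lower and 1.80% higher), while 34 members were negative, their median was -0.12 and 17 had an unadjusted p under 0.05 by edgeR. In this fit and in that with position, the counts of negative members and of unadjusted p were not taken over all genes. The score averaged -1.32 ± 1.27 (SD, n = 41) in vehicle and 1.11 ± 1.17 (SD, n = 49) in zileuton livers. Exposure and position cannot be told apart in this design, and the part of clock phase in the members' differences was not tested beyond this fit.

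Fibrinogen, the soluble precursor of fibrin, is built from the alpha, beta and gamma chains, whose genes lie together on mouse chromosome 3 (GRCm38), Fgg at chr3:83007724-83015049, Fga at chr3:83026076-83033627 and Fgb at chr3:83040141-83049863. All 3 chains fell. Fgg ran from 2421 to 5498 CPM in vehicle livers (median 3308) and from 1806 to 5153 in zileuton livers (median 2462). It fell by 23.3% (log2 fold change -0.38 ± 0.07 SE, adjusted p = 6.73e-06 by edgeR), and 43 of 49 zileuton animals lay below the vehicle median. Fgb had medians of 3982 (2784 to 6638) and 3128 (2281 to 6789) CPM, a log2 fold change of -0.33 ± 0.07 (SE). Fga had medians of 4509 (2945 to 7994) and 3650 (2254 to 7736) CPM, a log2 fold change of -0.29 ± 0.08 (SE). Each chain had a lower zileuton mean in all 8 runs. Of the members called lower, 6 were lower in all 8 runs and 18 in at least 6 runs. Over all 42 members, those with a lower zileuton mean numbered from 16 in run 7 and 23 in run 6 to 38 in run 2. These counts were not taken over all genes. F13b, the carrier subunit of the fibrin-crosslinking factor XIII, had medians of 180.6 and 178.2 CPM and did not pass (log2 fold change -0.03).

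**Figure D2:**
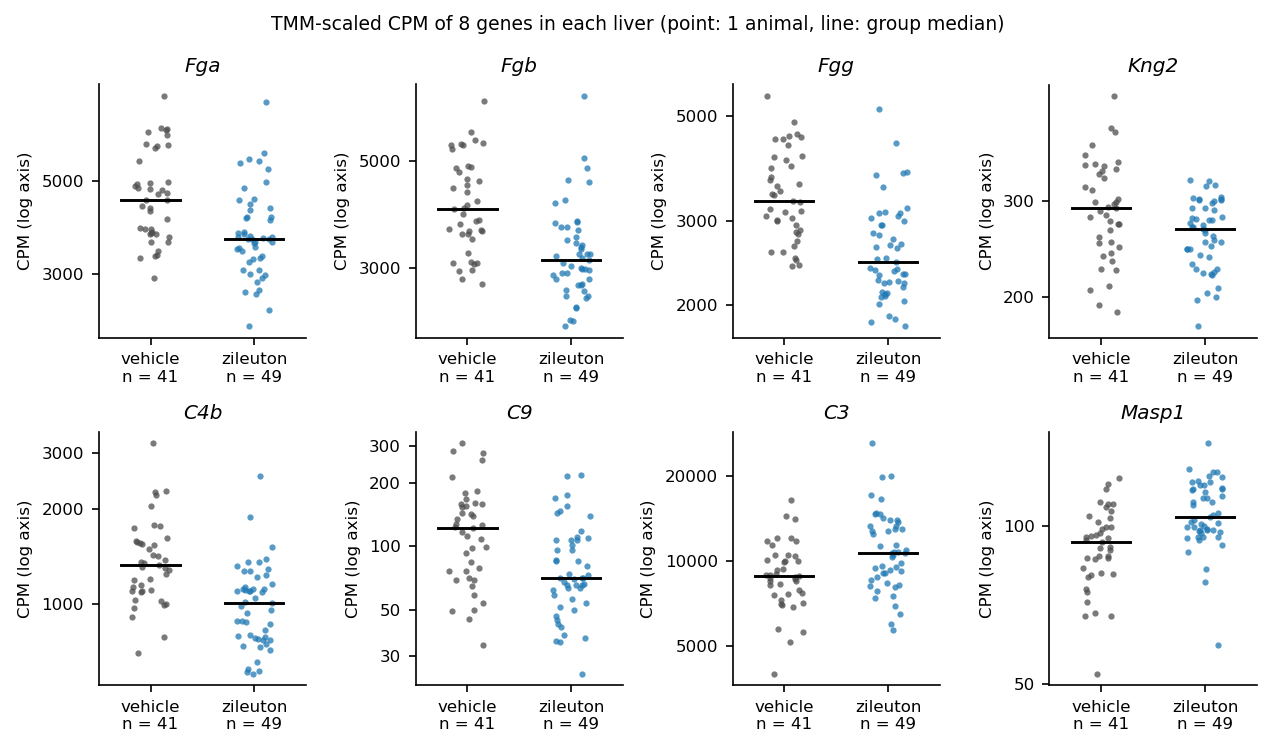
TMM-scaled CPM of Fga, Fgb, Fgg, Kng2, C4b, C9, C3 and Masp1 in each liver on log axes, with the group median as a line, for 41 vehicle and 49 zileuton animals. Both groups spread over overlapping ranges, and the medians of Fgg move from 3308 to 2462 and those of C3 from 8849 to 10690 CPM.

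The chains varied together across animals. Within vehicle livers Pearson's r was 0.943 for Fga with Fgb, 0.900 for Fga with Fgg and 0.947 for Fgb with Fgg, and Spearman's rho was 0.923, 0.893 and 0.917. Within zileuton livers r was 0.935, 0.932 and 0.965, and rho 0.918, 0.917 and 0.964. Each of the 6 relations had the smallest p that 100000 permutations can give, 1e-05, and an adjusted p of 1e-05. Without the 2 animals farthest from the median of the first gene, r was 0.878 to 0.952 over the 6, and with the run of animal numbers removed it was 0.891 to 0.957. Within the zileuton group all 3 chains were negatively related to the clock score, with r = -0.543 for Fga, -0.478 for Fgb and -0.542 for Fgg (permutation test, Spearman's rho -0.572, -0.498 and -0.548), at adjusted p of 0.00168, 0.00854 and 0.00168 over 42 members. Without the 2 animals of most distant score, r was -0.571, -0.464 and -0.524. Within vehicle livers r was -0.109, -0.141 and -0.228 and no member was called by the permutation test (2 of 42 at an unadjusted p under 0.05). Without the 2 vehicle animals of most distant score, r was 0.053, 0.083 and 0.018. With the run of animal numbers removed, r was -0.371, -0.401 and -0.472 in vehicle livers and -0.484, -0.426 and -0.493 in zileuton livers. The difference between the groups in these relations was not tested.

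**Figure D3:**
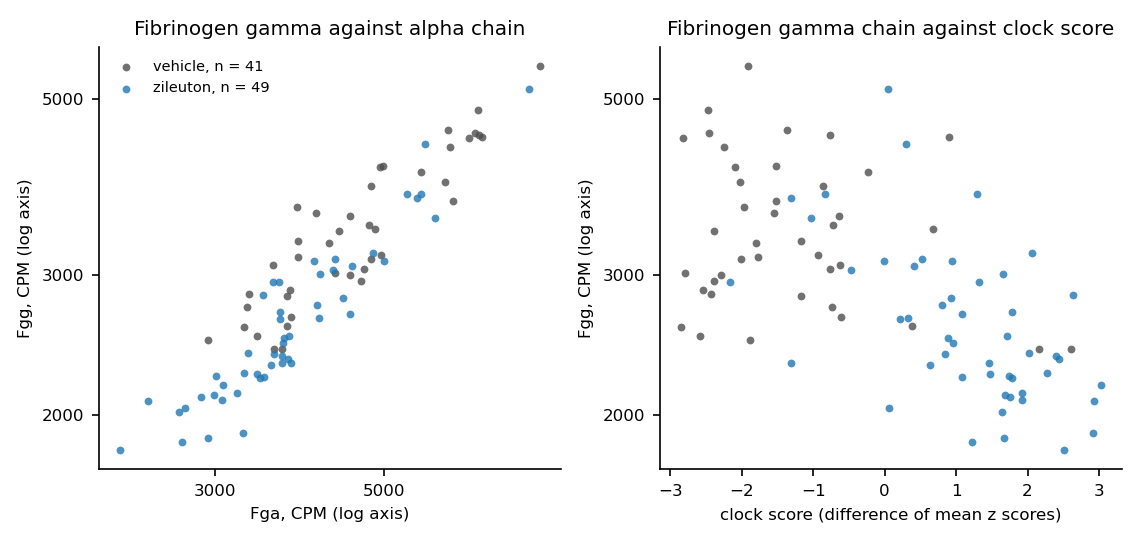
Left, CPM of Fgg against Fga in each liver on log axes. Right, CPM of Fgg on a log axis against the clock score. The chains rise together in both groups (r = 0.900 and 0.932), and in zileuton livers Fgg falls with the score (r = -0.542), with vehicle livers mostly at negative scores.

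Promoter sequence of the chains is shown because they moved together, with C3 and C9 as members that moved in opposite directions. The bases are those before the RefSeq start on the gene's strand (GRCm38.p6), less any base inside the GENCODE gene model, 5′ to 3′, and capitals mark a match to 3 motifs searched on both strands: CAAAGNNCA (HNF4 type), TTNNGCAA (C/EBP type) and CTGGGAA (IL-6 type). No 2 of the marked matches overlap.
Fga chr3:83025903-83026075, plus strand: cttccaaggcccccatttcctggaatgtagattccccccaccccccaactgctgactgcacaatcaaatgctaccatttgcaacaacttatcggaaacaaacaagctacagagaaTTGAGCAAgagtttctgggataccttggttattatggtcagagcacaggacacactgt
Fgb chr3:83049864-83050113, minus strand: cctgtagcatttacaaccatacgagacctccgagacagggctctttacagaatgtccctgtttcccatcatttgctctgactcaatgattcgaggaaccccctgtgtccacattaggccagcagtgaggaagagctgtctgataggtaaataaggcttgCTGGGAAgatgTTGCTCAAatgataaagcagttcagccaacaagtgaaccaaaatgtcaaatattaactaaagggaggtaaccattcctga
Fgg chr3:83007474-83007723, plus strand: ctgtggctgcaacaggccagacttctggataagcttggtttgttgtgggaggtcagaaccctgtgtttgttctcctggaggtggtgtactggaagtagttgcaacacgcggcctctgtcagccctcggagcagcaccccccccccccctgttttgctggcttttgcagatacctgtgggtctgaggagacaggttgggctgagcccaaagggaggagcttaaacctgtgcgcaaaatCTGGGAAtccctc
C3 chr17:57228137-57228386, minus strand: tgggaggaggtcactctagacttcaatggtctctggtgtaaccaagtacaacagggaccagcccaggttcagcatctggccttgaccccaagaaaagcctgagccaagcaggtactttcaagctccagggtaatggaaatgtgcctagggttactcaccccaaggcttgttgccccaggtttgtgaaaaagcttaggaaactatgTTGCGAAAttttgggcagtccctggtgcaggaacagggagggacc
C9 chr15:6445096-6445326, plus strand: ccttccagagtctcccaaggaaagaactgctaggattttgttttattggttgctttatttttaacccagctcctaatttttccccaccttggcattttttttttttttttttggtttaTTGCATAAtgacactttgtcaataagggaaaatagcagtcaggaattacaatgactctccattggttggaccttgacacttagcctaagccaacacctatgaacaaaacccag
Among the 33 members with a window in the table, 7 held the HNF4 type in the 250 bases before the start, 10 the C/EBP type and 4 the IL-6 type, that is 21.2%, 30.3% and 12.1%. Over all 32544 windows of the same length the shares were 5.51%, 9.58% and 9.14%. These are shares of windows, whereas the members were counted per gene (33 genes with 35 windows). The HNF4 type match counted for Fga reaches into bases inside the gene model, so it is not marked in the shorter stretch printed. These counts describe letters in a window and were not tested.

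In the contact system, the surface-triggered start of coagulation, 3 of 5 members were lower. Kng2, a kininogen, had medians of 291.2 and 266.3 CPM (log2 fold change -0.17 ± 0.05 SE). Kng1, the more abundant kininogen at 701.6 CPM per kb, had medians of 2280 and 2115 CPM, and Klkb1, plasma prekallikrein, 336.2 and 294.0 CPM. All 3 calls were lost without run 2 (adjusted p = 0.0808 for Klkb1, 0.202 for Kng1 and 0.197 for Kng2 by edgeR). Kng1 also lost the call without run 1 or run 3 (adjusted p = 0.0559 and 0.0557 by edgeR). With Saa1 as a covariate Kng1 and Kng2 were not called (adjusted p = 0.122 and 0.073 by edgeR). Kng1 and Kng2 are near copies of each other, so reads may be split between them. F11 and F12 did not pass, with log2 fold changes of -0.08 and -0.15. Among the factors that generate thrombin, F2 (prothrombin), F9 and F10 were lower, with changes of -8.88%, -8.99% and -8.40%, and F7 and F5 did not pass at -0.15 and -0.07. Prothrombin was the most abundant of these, with medians of 1911 (1681 to 2474) and 1783 (1405 to 2266) CPM. The call of F10 was lost without vehicle animal 11 (adjusted p = 0.0570 by edgeR) or vehicle animal 14 (adjusted p = 0.0512 by edgeR). It was also lost without run 1, 2, 3 or 5 (adjusted p = 0.062, 0.233, 0.0721 and 0.116 by edgeR). The same held with Saa1 as a covariate (adjusted p = 0.106 by edgeR) and on the authors' normalized values (adjusted p = 0.0535 by limma). F7 (adjusted p = 0.0534 by edgeR) gained the call in 24 of 90 fits that left out 1 library (adjusted p down to 0.0285 by edgeR). F12 gained it without vehicle animal 29 or 39 (adjusted p = 0.0381 and 0.0427 by edgeR).

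Anticoagulants moved in both directions. Serpinc1, antithrombin, fell by 9.73% (log2 fold change -0.15 ± 0.03 SE, adjusted p = 7.09e-06 by edgeR), with medians of 2572 (2146 to 3179) and 2272 (2004 to 2957) CPM, and 45 of 49 zileuton animals lay below the vehicle median. Pros1, the protein C cofactor, was higher by 17.4% (log2 fold change 0.23 ± 0.07 SE), from a median of 41.8 to 51.9 CPM, with 38 of 49 zileuton animals above the vehicle median. Serpind1 (heparin cofactor II) and Proc (protein C) had log2 fold changes of -0.08 and -0.09. These calls lie close to the threshold, and leaving out 1 library ended the call in 8 of 90 fits for Serpind1 and in 26 of 90 for Proc, with adjusted p up to 0.0622 and 0.0677. Proc was not called by DESeq2 (adjusted p = 0.0550) or limma-voom (adjusted p = 0.0510). Proz, protein Z, did not pass.

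Among fibrinolysis genes, Plg (plasminogen), Serpinf2 (the plasmin inhibitor alpha2-antiplasmin) and Apoh were lower, with changes of -9.20%, -11.8% and -11.3%. Serpinf2 had medians of 1248 (839.3 to 1834) and 1109 (803.0 to 1697) CPM, and Apoh 2481 (1847 to 3416) and 2164 (1600 to 2770). Hrg, a histidine-rich plasma protein, had a log2 fold change of 0.11 and Cpb2, which protects fibrin from plasmin, -0.05, and neither passed.

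In the classical and lectin pathways C4b, a complement protein cleaved by C1s, had the largest change, a log2 fold change of -0.46 ± 0.09 (SE, adjusted p = 5.83e-05 by edgeR). Its medians were 1331 (700.1 to 3228) and 1005 (603.7 to 2548) CPM, and 43 of 49 zileuton animals lay below the vehicle median. C1s1, the C1s protease, fell by 10.7%, a call lost without vehicle animal 9 (adjusted p = 0.0518 by edgeR). It was also lost without run 1, 2, 5, 6 or 8 (adjusted p = 0.154, 0.1, 0.0599, 0.0593 and 0.0873 by edgeR). The same held with Saa1 as a covariate (adjusted p = 0.0992 by edgeR). C4b and C1s1 have near copies, C4a and C1s2, and counts may be shared with them. Masp1 was higher, from a median of 93.1 (52.4 to 123.1) to 103.9 (59.3 to 143.3) CPM (log2 fold change 0.21 ± 0.05 SE), and 44 of 49 zileuton animals lay above the vehicle median. Mbl1 and Mbl2, mannose-binding lectins, had log2 fold changes of -0.11 and -0.11, and C2 and Masp2 of 0.00 and 0.03, with no call. Mbl1 gained the call without zileuton animal 17 (adjusted p = 0.0374 by edgeR).

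C3 rose by 24.8% (log2 fold change 0.32 ± 0.09 SE, adjusted p = 0.00478 by edgeR), with medians of 8849 (3983 to 16420) and 10690 (5672 to 26090) CPM. The rise was uneven over the runs, with run 6 at 1.46 and run 2 at -0.33 on the log2 scale, and without run 6 the log2 fold change was 0.18 and the call was lost (adjusted p = 0.0990 by edgeR). The call of C3 was also lost with the library name letter and number as covariates (0.22, adjusted p = 0.0801 by edgeR). Cfb, the alternative pathway protease, did not pass at -0.12. None of the 3 complement inhibitors passed by edgeR (0 at an unadjusted p under 0.05), DESeq2 or limma-voom, and Serping1, the C1 inhibitor, had the largest change of them at -0.11 (medians 788.8 and 718.8 CPM).

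C9, the pore-forming component, had the largest fold change of all members. It ran from 33.8 to 309.9 CPM in vehicle livers (median 122.2) and from 24.8 to 219.9 in zileuton livers (median 70.7), a log2 fold change of -0.57 ± 0.15 (SE, adjusted p = 0.00292 by edgeR). Without run 2 it was -0.41 and the call was lost (adjusted p = 0.0633 by edgeR). C8g, the gamma subunit of C8, was lower with medians of 450.2 (313.9 to 642.8) and 358.0 (241.9 to 621.6) CPM, a log2 fold change of -0.32 ± 0.05 (SE), and was lower in all 8 runs. C8a, C8b, Hc (C5) and C6 did not pass, at -0.29, -0.34, -0.14 and 0.00, and C8a gained the call without vehicle animal 30 (adjusted p = 0.0498 by edgeR).

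Of the 6 terminal complement genes, 5 also varied more between animals than any other member. The SD of log2 CPM in vehicle livers was 1.38 for C6, 0.97 for C8b, 0.77 for C9, 0.76 for Hc and 0.75 for C8a, the 5 largest of the members, and it placed C6 at the 98.2 percentile of genes with a mean of at least 1 CPM. C8g, by contrast, had an SD of 0.21, and the median member 0.29 against 0.27 over all these genes. C6 ran from 4.31 to 137.6 CPM in vehicle livers (median 15.8) and from 5.10 to 129.2 in zileuton livers (median 19.5). No member was called for a change of spread under zileuton by limma on deviations from the group median (0.0337% of genes called, 4 members at an unadjusted p under 0.05). In 30 of 42 members the SD was lower under zileuton, a count not taken over all genes. Over all these genes the median SD was also lower there (0.266 against 0.270).

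**Figure D4:**
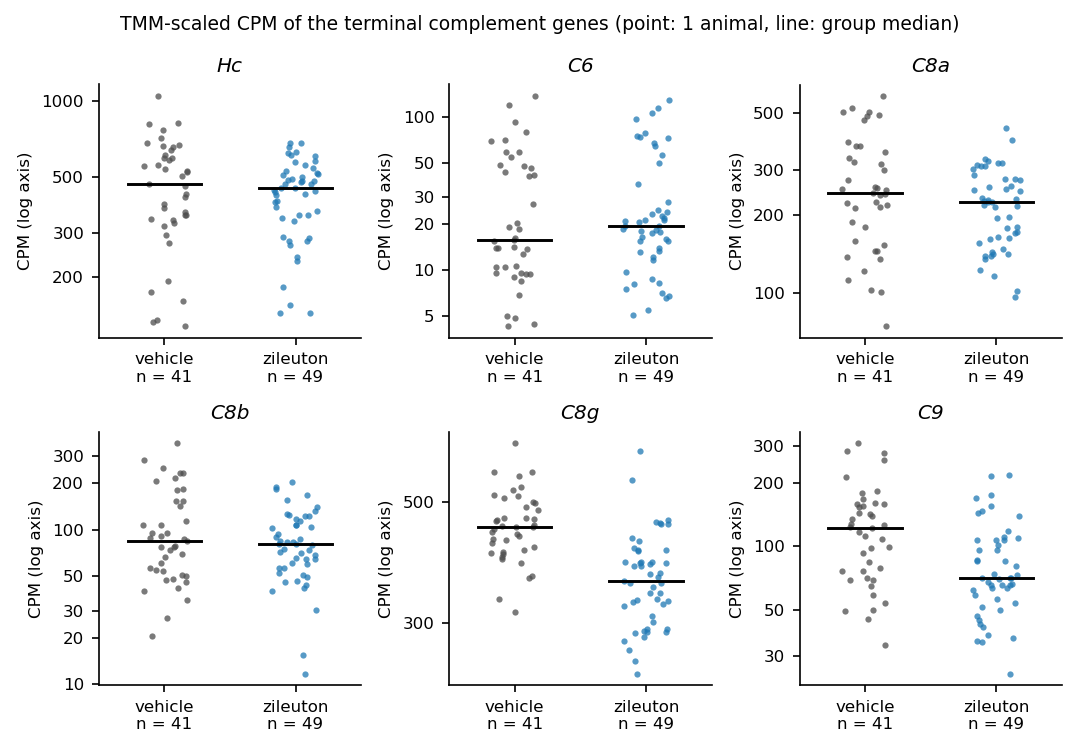
TMM-scaled CPM of Hc, C6, C8a, C8b, C8g and C9 in each liver on log axes, with the group median as a line. C6 spans the widest range of the 6 by fold in both groups (4.31 to 137.6 and 5.10 to 129.2 CPM), and C8g the narrowest (313.9 to 642.8 and 241.9 to 621.6 CPM).

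C8a and C9, on chromosomes 4 and 15, varied together within vehicle (r = 0.690, Spearman's rho 0.701) and zileuton livers (r = 0.663, rho 0.633), by a permutation test with adjusted p of 5.71e-05 over 40 relations. C8a and its neighbour C8b had r of 0.626 and 0.504. Neighbouring genes did not always vary together: Kng1 and Kng2, 28383 bases apart, had r of 0.816 and 0.668, whereas F11 and Klkb1, 4658 bases apart, had -0.029 and 0.190. Reads may be split between the near copies Kng1 and Kng2, and the part of this in their r was not tested. The 40 relations were between neighbours within 200 kb or between the terminal complement genes Hc, C8a, C8b, C8g and C9, in each group. C6 was in none of these pairs, and the fibrinogen chains were taken separately. Of the 40, 17 were called, and these pairs were chosen after the data were seen.

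Saa1, serum amyloid A, was used as an acute phase measure from outside the members. It had medians of 30.7 (7.08 to 3661) and 22.6 (4.34 to 382.5) CPM. Its log2 fold change of -2.08 was -1.11 without vehicle animal 9, which held the highest value. In vehicle livers 5 of 42 members were called with Saa1 by permutation tests of both coefficients: C4b (r = 0.740, rho 0.748), Cfi (0.652, 0.594), Serping1 (0.565, 0.655), C4bp (0.557, 0.490) and Plg (0.403, 0.505). Without vehicle animal 9, r was 0.657, 0.550, 0.495, 0.371 and 0.370, and C4bp and Plg lost the call of r (adjusted p = 0.140 by permutation for both). Without the 2 animals of most extreme Saa1, r was 0.603, 0.505, 0.482, 0.377 and 0.362. In zileuton livers the members called were C4b (r = 0.690), Fgb (0.639), Fgg (0.619), Serping1 (0.591), C2 (0.553) and Kng2 (0.376). With Saa1 as a covariate, 13 members were called lower (13.9% of all genes) and 3 higher (13.2%).

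Coat colour was tested with treatment in the model. No member was called for black against agouti (0.0453% of genes called, lowest member adjusted p = 0.690 by edgeR), white against agouti (0.00755%, 0.807), or the interaction of coat with treatment (0.00755% for black and 0.0302% for white). At an unadjusted p under 0.05 there were 4, 0, 3 and 1 members in these 4 tests by edgeR, which was the one tool run for coat colour.

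Other genes of the same pathways mostly did not pass. Of 26 other complement genes tested, Cfhr2 (log2 fold change -0.24) and Vtn (vitronectin, -0.22) were lower. Leaving out 1 library ended the call of Cfhr2 in 46 of 90 fits. Of 21 other coagulation genes, F2r (a thrombin receptor, log2 fold change 0.62) and Vwf (0.37) were higher and Hgfac (-0.30) was lower. Of 11 genes of the vitamin K cycle and factor export, Nqo1 (0.46), Pcsk6 (0.37), Furin and Vkorc1l1 were higher and Mcfd2 was lower (-0.16), while Ggcx, the gamma-carboxylase, and Vkorc1 did not pass (-0.06 and -0.11). Among 19 liver transcription factors, 5 were higher and 5 lower: Hnf4a (0.00) and Cebpa (-0.07) did not pass, and Cebpb was higher (0.49). Of 24 other secreted plasma proteins 15 were lower and 2 higher, albumin (Alb) by -0.20, with a list median of -0.20 (log2). Of 20 endoplasmic reticulum folding genes 14 were lower and none higher by edgeR (0 higher at an unadjusted p under 0.05), DESeq2 or limma-voom, with Sdf2l1 (-0.92) and Creld2 (-0.85) the largest.

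**Figure D5:**
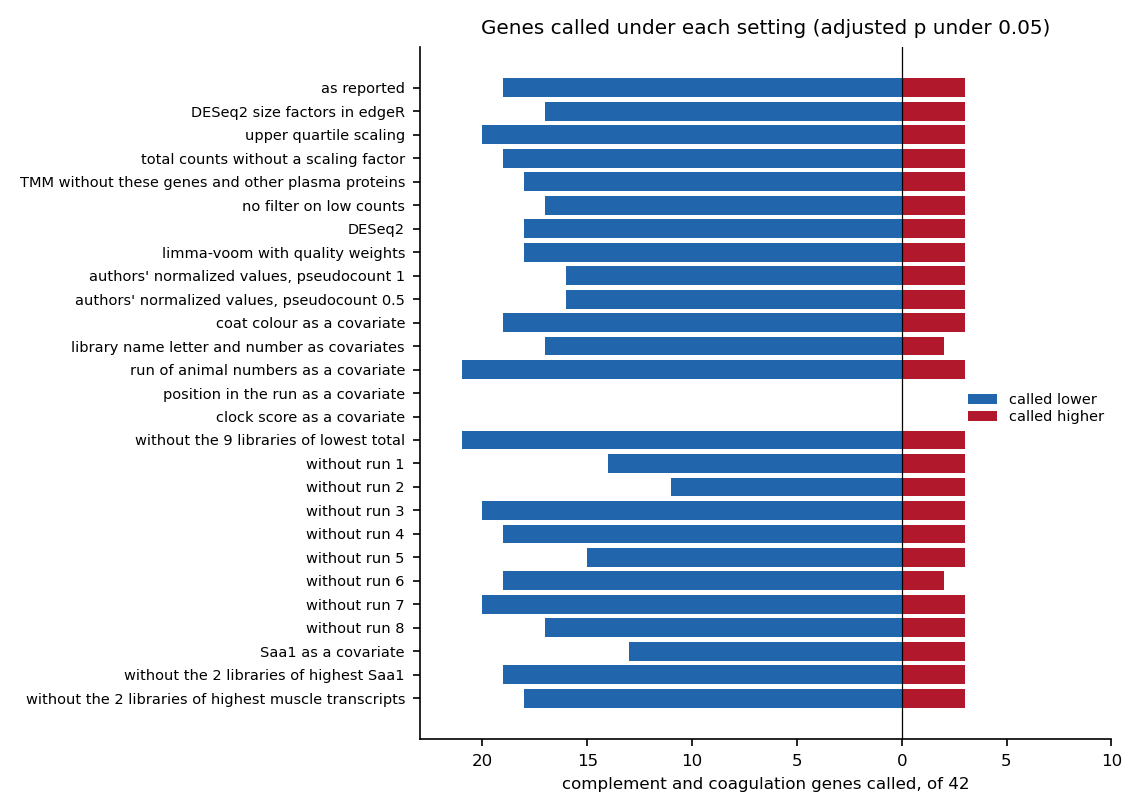
Number of the 42 genes called lower (blue, to the left) and higher (red, to the right) at adjusted p under 0.05, under each alternative setting. The counts stay at 11 to 21 lower and 2 to 3 higher in all settings shown other than position in the run and clock score as covariates, where both are 0.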

How the data were processed

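Liver RNA from 90 mice was sequenced with 1 library per animal. Per the submitters' processing notes, STAR, Partek and DESeq2 were used with mm10, without versions or settings. The authors deposited estimated counts per gene, of which 76.7% are whole, and DESeq2 normalized values, a signal made by dividing counts by a size factor. Within a library the ratio of the deposited tables was constant to 5.0e-06 above 50 counts. Gene models are GENCODE M21.

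Counts were rounded and tested with edgeR 4.0.16 (TMM, filterByExpr, robust quasi-likelihood fit) over all 13248 genes, with Benjamini-Hochberg adjustment, all 90 animals and no covariate. Standard errors are the log2 fold change divided by the square root of F. Levels are TMM-scaled CPM, log2 CPM uses a prior count of 2, and spread was tested with limma 3.58.1. Correlations used two-sided permutation tests with 100000 resamples. Scripts were tested on simulated data. Alternatives were DESeq2 1.42.0, limma-voom, other scalings, covariates and omitted libraries. Depth was 12664579 to 41360187 counts per library, which limits precision less than the spread between animals (common biological coefficient of variation 32.1%). Between any pair of libraries, chi-square per gene was at least 46.1, and no library was counted as a copy.

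Members and lists were chosen with earlier results of these data known. All 42 members may be named. Full values are given for the called members of largest change, at most 8 per direction, and in each role for the member of largest change and of highest level. The 5 members of largest spread and of largest relation to Saa1, and up to 2 called genes per direction of each other list, are named too. Whether counting used strand is not stated in those notes, and F5, Serpinc1, Serpind1, Plg, Apoh, C2, Masp1, Masp2 and C8g overlap a gene on the other strand. A few genes of the other lists that this rule would name are not reported here.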

Additional observations from a re-analysis of the deposited data

How the results depend on the processing

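Other scalings, tools, filters and pseudocounts gave 16 to 20 members lower and 3 higher, and moved the median of all genes by at most 0.0098 (log2). Leaving out each of 90 libraries gave 16 to 21 lower and 3 higher, and 18 of 22 calls held in every such fit. With position in the run as a covariate, and with the clock score as a covariate, 0 members were lower and 0 higher. Without run 2, 11 were lower. The causes were not tested. Without vehicle animal 9, the relations to Saa1 of the 5 members of largest r in vehicle livers fell to between 0.312 (Kng1) and 0.657 (C4b), and r no longer passed for Kng1, which had passed for r but not for rho, or for C4bp (0.371). The same held for Plg (0.370), which has the smallest r of the members called. Coat and spread calls stayed at 0 in every alternative run. No paired analysis was possible because the replicate numbers only follow accession order and pair no animals. Saa1 as a covariate and the omission of the pairs of libraries with most Saa1 or muscle transcripts were added after seeing the data.

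Log2 fold changes that changed sign belonged to members not called, except F2 (0.029) and Proc (0.025) with position as a covariate, where F11 was 0.018, Cpb2 0.057, C2 -0.087, Masp2 -0.01, Mbl1 0.21, Mbl2 0.0015, Cfi 0.038, C6 0.42 and C8b 0.076. With the clock score Hrg was -0.077, Masp2 -0.027, Mbl1 0.041, C6 0.1 and C8b 0.012. With the library name letter and number Cpb2 was 0.018, C2 -0.014, C4bp -0.007 and C6 0.16. With the run as a covariate C2 was -0.039, C4bp -0.0002 and C6 0.025. With upper quartile scaling C2 was -0.0061 and C4bp -0.0035. Without the 9 libraries of lowest total C2 was -0.019, C4bp -0.0016 and C6 0.024. C6 was 0.0017 with total counts, 0.053 by limma-voom and 0.09 on the authors' normalized values with either pseudocount. Leaving out single runs gave Cfi 0.054 and C6 0.2 (run 2), Cpb2 0.02, C4bp -0.0051, Cfi 0.01 and C6 0.082 (run 3), C2 -0.012 and C4bp -0.003 (run 4), C2 -0.0066, Cfi 0.013 and C6 0.037 (run 5), C2 -0.022 and C4bp -0.026 (run 6), C2 -0.018, C4bp -0.015 and C6 0.11 (run 7) and C2 -0.0077 (run 8). With Saa1 as a covariate Cfi was 0.061 and C6 0.078, and without the pair of highest Saa1 0.0054 and 0.095. Over the fits that left out 1 library, C2 ranged from -0.012 to 0.027, C4bp from -0.0056 to 0.032, Cfi from -0.034 to 0.0063 and C6 from -0.1 to 0.12.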
